A study of Mus musculus with 16 samples.

Results

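The terminal ileum of wild-type mice fed the normal diet (ND) is described here from its own 4 libraries, taken from 16 libraries in all. They were chosen by their labels alone, as Tas1r3+/+ mice on the ND, and no measured value entered the choice. The study fed Tas1r3+/+ and Tas1r3-/- littermates of C57BL/6 background the ND or a Western diet (WD) for 10 weeks and sequenced RNA of the terminal ileum on the Ion Proton platform. The 4 mice, 2 males and 2 females that were 5 to 6 weeks old when feeding began, received the matched control pellets D12450J with plain water ad libitum. Where a pattern was looked up in other animals, the 4 Tas1r3+/+ mice on the WD (high-fat pellets D12492 with sucrose solution, also 2 males and 2 females) were used. No tissue layer or cell type was isolated before RNA extraction, so every level is that of the whole gut segment and whatever was attached to it. In such bulk tissue, fewer cells of a type and less RNA per cell cannot be told apart.

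The terminal ileum is the last stretch of the small intestine before the cecum. Its enterocytes take back conjugated bile acids through a sodium-dependent transporter, carry them through the cell on a binding protein and release them to the portal blood through a heterodimeric exporter, and it is also where vitamin B12 bound to intrinsic factor is absorbed. Its crypts are rich in Paneth cells, secretory cells that fill the crypt base with alpha-defensins, lysozyme and other antimicrobial proteins, and its lamina propria holds plasma cells that make IgA.

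The libraries held 7038405 to 12384102 read equivalents (median 9792336), estimated from the size of 1 read in genes with 1 annotated transcript. The deposited values are named RPKM (reads per kilobase of transcript, relative to the size of the library) and are summed here over the transcripts of each gene. They added up to nearly the same total in each library (817011 to 819374), as values adjusted to a fixed total would, so whether they are RPKM in the strict sense is not settled. Each set of 4 values is given in the order male 1, male 2, female 1 and female 2. Scaled values were multiplied by a factor per library that evens out the bulk of the genes, and every fold between libraries is on that scale. The WD-fed libraries have a lower total (542371 to 607087), so their levels are not set against those of the ND. On a transcript of 1 kb, 1 read was worth 0.0866 to 0.139 RPKM, so levels near 0.1 rest on single reads, and values far under that are fractions of a read assigned by the quantification. Sex labels matched the data: Xist was at 0.0303, 0.127, 38.2 and 45.6 and the Y-linked Eif2s3y at 19.3, 16.4, 0 and 0. In 9 transcripts of 7 genes (Cpt1a, Hif1a, Mtor, Muc3, Ppara, Pparg and Tas1r3), 15 values carried more than 6 digits, unlike the rest of the table. In each female library, the values of Cpt1a-201, Mtor-201, Mtor-204, Ppara-201, Ppara-203 and Pck1-202 equaled 1 fixed weighted mean of the values of the males within 0.001%. How they came about is not given in the sources used here. None of these transcripts enters a gene described here, whereas Tas1r3 and Muc3 do include values with more than 6 digits.

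The alpha-defensin genes on chromosome 8 carried more of the summed RPKM than any other list examined, and many of them are near copies of one another. The last 105 coding bases of the most abundant ones, which encode the end of the peptide, are shown in the sense direction because they set which genes can be read apart (GENCODE M21, GRCm38). Capitals mark the bases that differ from Defa24 in Defa30, Defa3 and Defa27, and from Defa22 in Defa21. The stretches lie at chr8:21735270-21735374 (Defa24), chr8:21135396-21135500 (Defa30), chr8:21288176-21288280 (Defa3), chr8:21316280-21316384 (Defa27), chr8:21163048-21163152 (Defa22), chr8:21026316-21026420 (Defa21) and chr8:21379295-21379399 (Defa2), all on the plus strand.
Defa24: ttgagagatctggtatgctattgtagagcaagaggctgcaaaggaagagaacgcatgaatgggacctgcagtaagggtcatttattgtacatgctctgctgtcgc
Defa30: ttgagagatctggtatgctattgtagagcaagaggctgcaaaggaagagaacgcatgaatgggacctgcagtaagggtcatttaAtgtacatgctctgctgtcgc
Defa3: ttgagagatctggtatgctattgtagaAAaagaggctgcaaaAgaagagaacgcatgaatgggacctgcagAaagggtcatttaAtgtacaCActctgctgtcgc
Defa27: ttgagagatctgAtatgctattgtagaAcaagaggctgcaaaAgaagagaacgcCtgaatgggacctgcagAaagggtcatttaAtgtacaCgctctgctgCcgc
Defa22: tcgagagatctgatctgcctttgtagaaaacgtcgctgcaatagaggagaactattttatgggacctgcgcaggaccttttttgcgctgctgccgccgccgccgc
Defa21: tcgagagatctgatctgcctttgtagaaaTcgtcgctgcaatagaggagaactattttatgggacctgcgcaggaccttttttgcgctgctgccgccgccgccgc
Defa2: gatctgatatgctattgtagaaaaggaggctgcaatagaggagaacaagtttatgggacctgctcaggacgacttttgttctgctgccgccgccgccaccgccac

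In this stretch Defa20, Defa32 and Defa33 have the same letters as Defa2. Over the whole coding sequence of 285 bases, Defa2 and Defa33 were identical, as were Defa20 and Defa32, and each of the first pair differed from each of the second by 1 base. The 279 coding bases of Defa3 and Defa17, of Defa23 and Defa31 and of Defa36 and Defa37 were also identical within each pair, Defa21 and Defa22 differed by 2 bases and Defa24 and Defa30 by 4. How reads were divided among such copies depends on the quantification, so sums over copies are the firmer values. The sum of Defa2, Defa20, Defa32 and Defa33 was 56581, 56896, 24448 and 11108 RPKM, that of Defa21 and Defa22 was 19027, 16898, 8214 and 3399, and that of Defa24 and Defa30 was 28226, 30026, 11844 and 17249. All 3 sums were higher in both males than in either female. Scaled values of the 2 sexes did not overlap, in one direction or the other, in 42.1% of all 17584 genes tested.

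Host defense genes were the most abundant. The 20 nuclear protein-coding genes with the highest mean comprised 10 alpha-defensins, the bactericidal lectins Reg3b and Reg3g, lysozyme of Paneth cells (Lyz1), the mucus-associated lectin Zg16, the goblet cell trefoil peptide Tff3, the galectin Lgals4, the apolipoprotein Apoa1, the ileal bile acid binding protein Fabp6, the brush border aminopeptidase Anpep and the cysteine-rich protein Crip1. The single highest was Defa24 (ENSMUSG00000064213.5, chromosome 8, 21734494 to 21735471) at 21296, 23379.7, 9346 and 9680.1 RPKM. The 37 listed alpha-defensin genes and pseudogenes, of which 29 had a mean of at least 100, summed to 18.1, 17.4, 7.65 and 6.38% of the total (12.4% ± 6.2, SD, n = 4). The males therefore held at least 17.4% and the females at most 7.65% in these genes. Among all genes, the 20 with the highest means took 17.4% ± 4.65 (SD, n = 4) of the summed RPKM, and the 1000 highest took 65.3% ± 2.69.

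The lectins and enterocyte genes among the 20 varied less than the defensins did. Reg3b stood at 7878, 6511, 5686 and 9329 RPKM and Reg3g at 5088, 4443, 3983 and 7146, with female 2 highest in both. Zg16 was at 5594, 6461, 5864 and 6943 and Tff3 at 3044, 3028, 2830.4 and 3767. For Zg16 the highest library exceeded the lowest by 1.3-fold after scaling, against 5.62-fold for Defa2. The contrast was smaller for whole lists, whose scaled sums ranged 1.83-fold for the Reg lectins and 3.05-fold for the alpha-defensins. Apoa1, which enterocytes load onto chylomicrons and high-density lipoprotein, was at 3155, 5884, 4289.8 and 5912, and Anpep at 3494, 3744, 4329 and 5262.

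Outside the nuclear protein-coding genes, 3 kinds of transcript stood among the highest. A ribosomal RNA gene, CT010467.1, was at 16410, 13708, 21141 and 8378 RPKM, highest in female 1, although ribosomal RNA had been depleted. The immunoglobulin kappa constant region (Igkc) was at 4909.6, 6788, 5089 and 2867. The 35 mitochondrially encoded genes summed to 4.38, 4.23, 3.35 and 5.58% of the total. The highest listed values among them were those of mt-Co1, which encodes a cytochrome c oxidase subunit, at 5885, 6051, 4834 and 8098. Nuclear pseudogenes shared these reads: all 681 bases of Gm28661 were identical to mt-Co2, and both genes were listed at nearly the same level, mt-Co2 at 4724, 4405, 3382 and 5854 and Gm28661 at 4682, 4436, 3365 and 5843. The same held for mt-Atp6 with Gm10925 over 678 bases and for mt-Co3 with Gm28437 over 783 bases. With its pseudogene added, mt-Co2 was at 9406, 8841, 6747 and 11697 and mt-Atp6 at 6262, 6357, 5057 and 8610. Both sums were above the listed mt-Co1 in every library. The mitochondrial shares given above leave out what is listed under these pseudogenes.

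**Figure D1:**
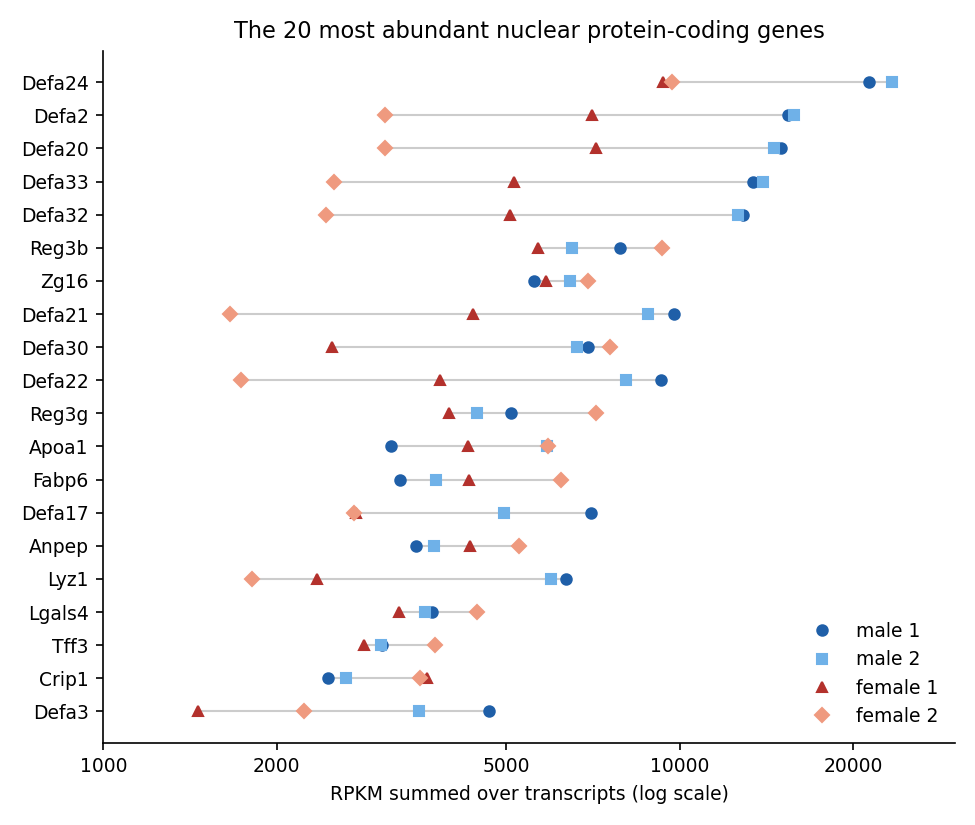
RPKM (log axis) of the 20 nuclear protein-coding genes with the highest mean, 1 point per wild-type normal-diet library and a gray line from the lowest to the highest. The males lie above both females in 9 of the 10 alpha-defensins and in Lyz1, whereas the points of Zg16, Lgals4 and Tff3 lie close together.

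Of 23299 genes in the table, 15442 (66.3%) had an RPKM of at least 1 in all 4 libraries and 4318 stayed under 1 in all 4. The remaining 3539 crossed that level in some libraries only. A mean of at least 100 was reached by 1203 genes and a mean of at least 1000 by 94. Only 221 genes were under 0.1 in all 4, and the median gene had a mean of 4.84. Genes of a list that have no row in the table were not analysed here.

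The labelled tissue was borne out by the levels of the bile acid and vitamin B12 genes. Of these 9 genes, 4 had a mean of at least 100 RPKM, against 1203 of all 23299 genes. A mean of at least 1 was reached by 8 of the 9, but also by 17400 of all genes. The 9 genes summed to 4460.1, 4714, 5626 and 8182. Fabp6 (ENSMUSG00000020405.4, chromosome 11, 43596049 to 43601540), the cytosolic bile acid binding protein, made up most of that sum at 3269.9, 3776, 4314 and 6225, a mean of 4396 ± 1292 (SD, n = 4). Of the 2 subunits of the basolateral exporter, Slc51a was at 625, 457, 749 and 1103 and Slc51b at 270.3, 171, 281 and 427. The apical transporter Slc10a2 was lower, at 128, 122, 74.5 and 162, and the bile acid receptor Nr1h4 was even across libraries, at 76.7, 64.4, 72.3 and 95.1. Cubilin (Cubn) and amnionless (Amn) form the receptor for intrinsic factor with vitamin B12. Cubn was at 35.7, 42.8, 38.9 and 51 and Amn at 50.1, 80.8, 58.8 and 73.5. Between the highest and lowest library these genes ranged from 1.41-fold (Cubn) to 2.34-fold (Slc10a2) after scaling, and 8 of the 9 genes of the list were highest in female 2.

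The secreted product of the same pathway did not share this evenness. Fgf15, the hormone that enterocytes release on bile acid receptor activation to lower hepatic bile acid synthesis, was at 5.35, 0, 37 and 45.3 RPKM. It was listed at 0 in male 2 and was highest in female 2, and both females lay above both males. Nr0b2, the nuclear repressor induced by the same receptor, was at 0, 0, 0.0919 and 1.07 and so barely detected. In the WD-fed Tas1r3+/+ libraries Fgf15 was at 1.4, 1.31, 8.72 and 68.1, again highest in female 2.

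Genes typical of the proximal small intestine were low, with 6 of the 14 in the table under a mean of 1 RPKM. The proximal transcription factor Gata4 was at 0.316, 0.296, 0.13 and 0.288. Onecut2, another factor of the duodenum, was at 0.0268, 0.0257, 0.0128 and 0.0213. Lactase (Lct), the brush border enzyme of milk sugar digestion, was at 0.106, 0.3, 0.0749 and 0.421. For Gata4 these levels amount to 3 to 8.59 read equivalents, so the lowest is at the limit of what this depth can show. Liver-type fatty acid binding protein Fabp1 reached only 3.34, 9.04, 10.3 and 1.57, against 551, 1961, 658 and 1159 for its intestinal relative Fabp2. The duodenal ferric reductase Cybrd1 was at 1.34, 0.598, 1.21 and 0.568, whereas ferroportin (Slc40a1), the iron exporter that macrophages also use, was at 18.2, 6.3, 42.5 and 29.8. The incretin Gip, made by proximal endocrine cells, was at 5.90e-06, 0.222, 4.99 and 2.36, so it was detected in the females and hardly in the males.

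Apoa4, a lipid-responsive apolipoprotein of chylomicrons, was the exception among the proximal genes. It was at 20.9, 507, 139 and 49.1, and male 2 exceeded male 1 by 24.6-fold after scaling. Both animals had the same sex, diet and genotype, so this range is one between 2 mice of the same group.

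Colonic genes in the table (8 of 16 listed) had sums of 176, 286, 193 and 341, most of it from 2 genes. Mettl7b, a methyltransferase-like protein, was at 119, 179, 167 and 218 and so steady. Carbonic anhydrase 1 (Car1), an abundant enzyme of colonic and cecal epithelium, was at 13.8, 91.9, 0.0877 and 94. It was thus near 0 in female 1 and above 90 in male 2 and female 2. Retnlb, a goblet cell product, was at 32.2, 2.79, 2.09 and 7.34, highest in male 1, and did not follow Car1. The distal peptide Insl5 did not pass 2 in any library, at 0.782, 0.399, 1.8 and 1.86e-11. Only 2 of 9 gastric genes were in the table, and the proton pump subunit Atp4a was at 0.0796, 0.0407, 0.061 and 0.143.

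The Hox genes are transcription factors that pattern the body from front to back. Of 26 in the table, 9 were under a mean of 1, and the HoxB cluster held the highest. Hoxb6 was at 44.5, 56.2, 20.9 and 41.9, Hoxb9 at 40.6, 30.6, 26.5 and 29.4, Hoxb7 at 20.6, 21.2, 14.8 and 23.1 and Hoxb5 at 18.8, 18.1, 17.6 and 13.9. The summed level of the 26 genes was nearly constant at 191, 193, 193 and 172. Their composition moved, however: Hoxc6 at 8.41, 9.48, 31.4 and 13.8, Hoxc8 at 4.95, 5.05, 16.7 and 7.07 and Hoxa5 at 1.22, 1.48, 5.32 and 1.02 were highest in female 1, whereas Hoxb6 and Hoxb8 (17.5, 18.9, 8.45 and 12.3) were lowest there. Smooth muscle genes, described further on, were also highest in female 1, and whether the Hox values moved with the amount of muscle was not tested.

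**Figure D2:**
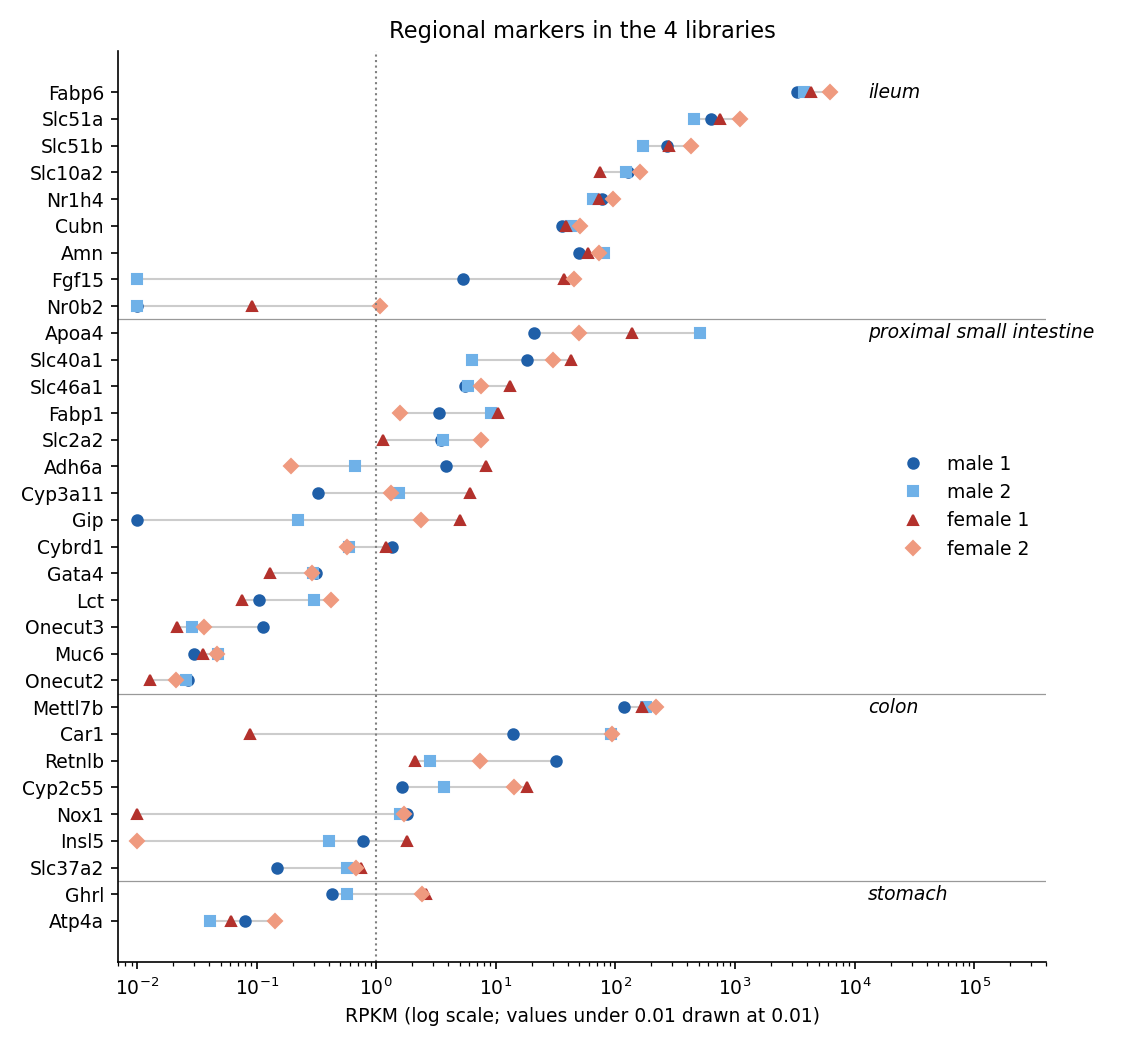
RPKM (log axis) of regional markers in the 4 wild-type normal-diet libraries, grouped by the region each marks, with values under 0.01 drawn at 0.01 and a dotted line at 1. Fabp6 lies at 3269.9 or above in every library, Gata4, Lct, Onecut2, Onecut3 and Muc6 lie under 1 in every library, and Car1, Fgf15 and Apoa4 each span more than a factor of 10.

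Enterocyte genes were abundant and moderately even. All 18 had a mean above 1 RPKM and 15 had a mean above 100, and the scaled sum of the highest library was 1.52 times that of the lowest. Villin (Vil1), which bundles the actin of microvilli, was at 937, 759, 810.2 and 1098. The sugar-digesting enzyme Sis was at 181, 273, 122 and 383 and the sodium-glucose transporter Slc5a1 at 169, 159, 169.6 and 329, with female 2 highest in both, as in 12 of the 18 genes. Fabp2 departed from this order: it was at 551, 1961, 658 and 1159, highest in male 2, where Apoa4 was highest too. Of the lipoprotein genes, Apob was at 161, 254, 193 and 255 and Apoc3 at 34.1, 89.9, 53.9 and 80.8, both lowest in male 1.

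The 9 goblet cell genes summed to 13328, 13676, 12703 and 15902, a range of 1.35-fold after scaling. The gel-forming mucin Muc2 was at 1283, 1187, 1041 and 1266 and its partner Fcgbp at 1339, 1364, 1525 and 1606. Secreted Clca1, a mucus-processing protease, was at 621, 463, 642 and 873, and the disulfide isomerase Agr2 at 587, 365, 350.1 and 572. Goblet cell products were thus among the most even of the epithelial lists. Atoh1, the factor that commits cells to the secretory lineage, was at 23.5, 24, 11.1 and 16 and Spdef, which acts after it, at 40.9, 40.2, 31.2 and 32. Both were higher in each male than in either female, whereas Fcgbp overlapped between the sexes after scaling. In 3 of the 9 goblet cell genes the sexes did not overlap, against 42.1% of all genes tested. The membrane mucin Muc3 was at 1049.8, 361, 341 and 545, but its transcript carried a value of more than 6 digits.

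Paneth cell genes divided the animals. The 8 listed genes summed to 11871, 10394, 4312 and 4171 RPKM, and the gap between the lower male and the higher female was wider than that between the 2 males. Lyz1 was at 6345, 5983, 2346 and 1808, the intelectin Itln1 at 2139, 1677, 708 and 679 and the angiogenin Ang4, which is microbicidal, at 795, 503, 133 and 161. Mptx2, a mucosal pentraxin, had the widest range of the 8, at 1026, 386, 15.1 and 97.1, so that male 1 had 79.2 times the scaled level of female 1. Matrilysin (Mmp7), the protease that activates the pro-defensins, was at 266, 137, 81.9 and 88.4, and the lineage factor Sox9, which stem cells also use, at 11.4, 12, 8.17 and 6.79. Colipase (Clps), a cofactor of lipases, was at 129.7, 117, 89 and 61.7. In these 7 genes the sexes did not overlap after scaling, as in 42.1% of all genes tested. The remaining gene, Guca2a, encodes guanylin, which other epithelial cells also make, and it overlapped at 1160.2, 1578, 930.4 and 1268.

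Not every defensin was listed higher in both males. Defa30 was at 6930, 6647, 2498 and 7569, so female 2 was the highest library and female 1 the lowest. Defa24, from which it differs by 1 base in the stretch printed above, was lower in both females. How reads were divided between these near copies depends on the quantification. The sum of Defa24 and Defa30, at 28226, 30026, 11844 and 17249, was higher in both males than in either female. Defa27 was at 115, 114, 27.5 and 505, more than 4 times higher in female 2 than in any other library. AY761185 (ENSMUSG00000079120.3, chromosome 8, 20943694 to 20944710), an alpha-defensin-related gene, was nearly silent except in female 2, at 0.728, 1.86, 0 and 257. Its last 105 coding bases (chr8:20943860-20943964, minus strand, GRCm38) are shown because they are built of repeats of the letters tgccc and look unlike the defensin sequences above.
AY761185: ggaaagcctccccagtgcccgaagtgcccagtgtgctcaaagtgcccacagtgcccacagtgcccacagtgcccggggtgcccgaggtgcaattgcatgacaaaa

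In the WD-fed Tas1r3+/+ libraries AY761185 was again high only in female 2, at 0.79, 0.531, 1.33 and 438, whereas Defa27 was even there, at 32.5, 28.3, 23.5 and 33.7. Replicate numbers are not known to link mice of different diets.

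Endocrine, tuft and stem cell genes were lower by comparison. The 14 enteroendocrine genes summed to 388, 401, 317 and 341, with secretin (Sct) at 124, 139, 80.1 and 91.9, peptide YY (Pyy) at 58.6, 64.5, 31.4 and 64.9, neurotensin (Nts) at 41.4, 58.1, 36.4 and 55.4, somatostatin (Sst) at 42, 27.9, 76.6 and 43 and proglucagon (Gcg) at 47.7, 29.3, 22.8 and 36.8. The granule protein Chga was at 32.2, 29.8, 21.6 and 18.4 and Chgb at 30.8, 38.1, 18.1 and 18.1, both higher in each male than in either female. Of the 12 enteroendocrine genes tested, the sexes did not overlap in 6 after scaling, against 42.1% of all genes tested. On average 8 of the 12 were higher in the males and 4 in the females. Cholecystokinin (Cck), a hormone mostly of the proximal intestine, was lower at 1.37, 2.92, 4.62 and 4.05. Among tuft cell genes, the cation channel Trpm5 was at 3.5, 3.51, 3.46 and 3.83 and the kinase Dclk1 at 2.78, 2.62, 4.56 and 4.55. Tas1r3 itself, the sweet and umami receptor subunit that the study deleted in other mice, was at 1.8, 1.87, 2.95 and 2.06, and 2 of these values carry more than 6 digits. Its partner Tas1r1 was at 0.152, 0.097, 0.182 and 0.121, which is 2 to 5 read equivalents, and the taste G protein Gnat3 at 0.639, 0.204, 0.0764 and 0.382.

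Olfm4, the most abundant of the 7 crypt stem cell genes, was at 175, 115, 76.7 and 124, and Lgr5, the receptor that defines cycling stem cells, at 5.71, 3.2, 2.81 and 3.54. Proliferation genes ranged 1.37-fold after scaling, summing to 219.9, 164, 186 and 204, with Pcna at 51.7, 39.3, 55.8 and 49.5, Top2a at 44.6, 32.2, 40.5 and 38.7 and Mki67 at 15.6, 11.5, 8.72 and 11.9. Male 1 had the highest scaled sum of both lists.

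Plasma cell genes were the highest of the immune lists. The 8 listed genes summed to 8219, 12959, 9661 and 5127, led by Igkc and by the IgA heavy chain Igha at 2991, 5269, 4231 and 1952. The joining chain Jchain, which dimerizes IgA, was at 180.5, 308, 135 and 93.4. Male 2 was highest and female 2 lowest in the sum, in Igkc, in Igha and in Jchain. Apart from the immunoglobulin variable segments, described further on, MHC class II genes came next. Antigen-presenting cells and ileal enterocytes both use them. Cd74, the invariant chain, was at 701, 679.7, 1596 and 2008 and H2-Ab1 at 401, 451, 959.7 and 1222. Macrophage genes were lower, and the 9 listed summed to 343, 405, 448 and 311. After scaling, this sum was highest in male 2 and lowest in female 2, although 6 of the 9 genes were highest in female 1. The complement component C1qa was at 39.9, 48.7, 93.6 and 56.8 and the growth factor receptor Csf1r at 3.98, 9.72, 10.4 and 7.88. Adgre1, which encodes F4/80, was at 1.28, 1.62, 1.99 and 1.68.

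T cell and follicular B cell genes were low, and the sums of both lists were higher in both females than in either male and highest in female 1. Among all genes tested, scaled values of the sexes did not overlap in 42.1%. The 8 T cell genes summed to 10, 13.7, 41.2 and 31.1, with 6 of them highest in female 1 and 2 in female 2 after scaling. The T cell receptor chain constant region Trac was at 1.86, 3.86, 9.45 and 6.12, Cd3g at 1.93, 2.44, 6.67 and 7.97 and Cd8a at 0.437, 0.558, 3.94 and 3.44. The 12 follicular B cell genes summed to 11.1, 22.4, 167 and 30.7, and female 1 had 13 times the scaled sum of male 1 and 5.06 times that of the next library. The scaled sums of male 2 and female 2 were near each other at 24 and 30, so the high level was that of female 1 alone. Cd79a, a signaling chain of the B cell receptor, was at 3.5, 5.91, 36.2 and 5.17, the IgD heavy chain Ighd at 0.541, 1.46, 21.9 and 2.69, the follicle homing receptor Cxcr5 at 0.28, 0.46, 7.27 and 1.56 and Spib, which B cells and M cells of the follicle-associated epithelium express, at 1.9, 1.79, 12.9 and 4.49. All 12 list members, which do not include Spib, were highest in female 1. Of the neutrophil genes in the table (3 of 6 listed), the calcium-binding protein S100a9 was at 0, 0.179, 0.805 and 0.335, while myeloperoxidase (Mpo) was at 10.0, 7.08, 6.68 and 8.98. Of the 6 dendritic cell genes, 5 had a mean under 1 RPKM, among them the chemokine receptor Xcr1 at 0.39, 0.561, 0.42 and 0.506, and the integrin chain Itgax was at 2.25, 4.73, 4.89 and 5.4. The 5 genes of type 3 innate lymphoid cells summed to 13.4, 25.5, 18.4 and 32.3, with male 2 above female 1. Their cytokine Il22 had another order, listed at 0 in both males and at 2.25 and 5.07 in the females.

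Smooth muscle genes were highest in female 1 too. The 9 genes summed to 2650.4, 1898, 6767 and 2867. The myosin light chain Myl9 was at 660.3, 566, 1905 and 864, the actin binding protein Tagln at 412, 304, 1346 and 438 and the actin Acta2 at 442, 321, 1067 and 485, and the smooth muscle myosin Myh11 was at 171, 123, 401 and 164. Each of the 9 was highest in female 1 and lowest in male 2. Genes of the cells that control the muscle had the same highest library. The pacemaker channel Ano1 was at 7.85, 3.41, 18.3 and 6.6, the neuronal hydrolase Uchl1 at 15, 13.1, 51.7 and 17.9 and the glial factor Sox10 at 1.95, 1.27, 3.95 and 1.17. The fibroblast proteoglycan Dcn was at 67.6, 83.4, 179 and 109.7 and the endothelial adhesion molecule Pecam1 at 9.96, 11.9, 27.2 and 12.3, again highest in female 1. The summed muscle, nerve, vessel and B cell lists were thus all highest in this library, and their part in its other values was not tested. Single members differed: 1 of the 8 enteric neuron genes was highest in female 2 and 1 of the 4 lymphatic endothelium genes in male 1.

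The next 4 lists mark material that can be attached to a gut segment. The 7 adipocyte genes summed to 36.1, 267, 347 and 254, so male 1 was low. Adipoq, the adipocyte hormone, was at 1.45, 28.6, 44.3 and 46.9 and Cfd at 6.13, 79, 93.3 and 45.4. Hemoglobin genes were higher in male 2 and female 1, with Hbb-bs at 10.7, 48.3, 72.6 and 15.5. Pancreatic zymogens appeared in female 1 alone above 1 RPKM: Ctrb1 was at 0, 0.316, 10.3 and 0, Cela2a at 0, 0.13, 5.5 and 0, Prss2 at 0, 0, 5.36 and 0 and Cpa1 at 0, 0, 3.94 and 0.0999. Cela1, which the intestine itself expresses, was at 6.44, 13.5, 15.2 and 10.4. Mesothelial Upk3b was at 0.246, 0.157, 4.65 and 1.64, again highest in female 1. The part of attached fat, blood or pancreas in the values of other genes was not tested.

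**Figure D3:**
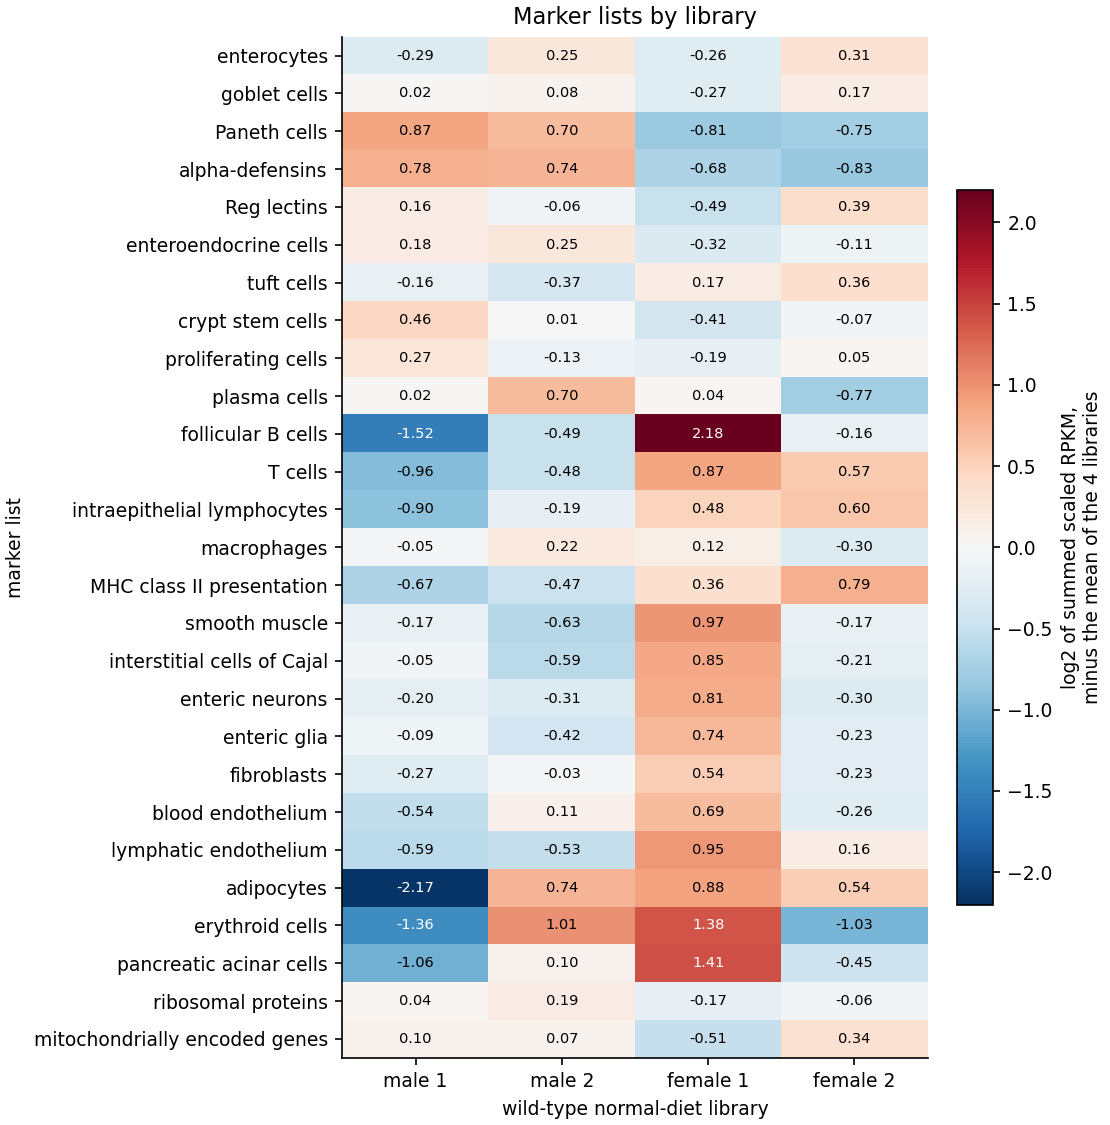
Each cell is the log2 of a marker list's summed scaled RPKM in 1 library minus the mean of the 4 wild-type normal-diet libraries, red where the library is above that mean and blue where it is below. Paneth cell genes and alpha-defensins are above 0.65 in both males and below -0.65 in both females, female 1 is the highest column from smooth muscle to lymphatic endothelium, and goblet cell and ribosomal protein genes stay within 0.3 of 0.

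The spread between animals was small for most genes. After scaling, the SD of log2(RPKM + 0.5) over the 4 libraries had a median of 0.25 among 11516 genes with a mean of at least 5 RPKM, with quartiles of 0.17 and 0.39. It was at least 1 in 303 genes (2.63%). The pair with the fewest genes 2-fold apart was male 1 and male 2 (446, 3.87%) and the pair with the most was male 2 and female 1 (1399, 12.1%). Female 1 was thus the library farthest from the males. Male 1 and female 2 had 490 genes (4.25%) 2-fold apart, and the root mean square of the log2 differences was 0.52 for this pair and 0.54 for the 2 males, so by that measure female 2 lay closer to male 1 than male 2 did.

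The steadiest 10 genes had SDs of at most 0.02 on that scale. They were Glg1, Nf2, Lnx2, Ndufs3, Arfip2, Ticam1, Rfxank, Map3k11, Ppp1ccb and Fam107b. The Golgi protein Glg1 was at 19.3, 18.9, 22 and 20.6 RPKM, the cytoskeletal linker Nf2 at 21.7, 21.8, 25.6 and 23.6 and Ndufs3, a subunit of respiratory complex I, at 38.2, 37.6, 44 and 40.4. After scaling, Glg1 was at 20.4, 20.2, 20 and 20.2. None of the 3 is restricted to a single cell type of the gut.

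Antibody genes made up a large part of the widely varying genes. Of the 303 genes with an SD of at least 1, 120 were immunoglobulin genes, which is 74.1% of the 162 that reached a mean of 5, and 121 were protein-coding. Among the 25 genes with the largest SD, 14 were immunoglobulin genes, and which mouse was highest differed from gene to gene. Igkv2-112 was at 0.907, 409, 7.53 and 1.21, Ighv2-9 at 0.3, 120, 0.287 and 0.239 and Ighv1-77 at 12.9, 259, 2.83 and 3.54, all highest in male 2. Igkv4-55 was at 163, 13.2, 4.39 and 3.89, highest in male 1, and Ighv5-4 at 5.11, 2.61, 213 and 6.52, highest in female 1. Igkv8-24 was high in 2 animals, at 15.2, 307, 396 and 5.7. These segments thus ranged widely between mice of 1 group. Variable segments are near copies of one another, so a single segment's value depends on how reads were assigned.

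The variable segments as a whole ranged far less than the single ones, summing to 5554, 9106, 5362 and 3242. That sum followed the plasma cell genes, with male 2 highest and female 2 lowest.

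Another 3 of the 25, Gm27529, Gm27597 and Gm27907, are annotated as microRNAs and together held 303.3 RPKM in male 2 and at most 0.547 in any other library. They have 1 and the same sequence of 80 bases, which is shown because it is not particular to them. It lies at chr15:7975328-7975407 (Gm27529), chr11:98029413-98029492 (Gm27597) and chr1:85012367-85012446 (Gm27907), on the plus strand of GRCm38.
Gm27529, Gm27597 and Gm27907: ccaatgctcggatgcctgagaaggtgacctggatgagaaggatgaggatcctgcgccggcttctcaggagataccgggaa

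The same 80 bases occur in transcripts of 8 annotated genes, among them Rpl19, which encodes a ribosomal protein, and its processed pseudogenes. Rpl19 was listed at 100, 115, 86.2 and 101 and its pseudogene Rpl19-ps11 at 719.7, 682, 939.8 and 819.6. In this stretch, reads of the 3 microRNA entries and of Rpl19 cannot be told apart.

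The protein-coding genes of the 25 were few. Besides AY761185, Fgf15, Mptx2, Car1 and the Y-linked Eif2s3y, they included Hsd3b3, a steroid dehydrogenase, at 40.4, 52, 33.8 and 0.665. It was low in female 2 alone, as was its near relative Hsd3b2 at 3.64, 8.54, 1.76 and 0.0484. Xist, on the X chromosome, and Gm28588, on the Y chromosome and listed at 10.5, 10.3, 0 and 0, divided the sexes. Of the 25, 16 had an SD of at least 1 in the WD-fed Tas1r3+/+ libraries too, where 4.91% of the same 11516 genes did; the median SD there was 1.58 for the 25 and 0.35 over all. Those libraries had no part in the ranking. They too hold both sexes, however, so a wide spread of Xist, Eif2s3y and Gm28588 there follows from the design. In addition, 14 of the 25 are immunoglobulin genes, of which 74.1% had an SD of at least 1 on the ND. The share over all genes is therefore not a like background for the 25. Car1 was at 0.149, 0, 10.5 and 0.0614 RPKM there, above 1 in 1 animal only, whereas Hsd3b3 was above 20 in all 4 at 27.7, 20.8, 47.2 and 25.3.

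**Figure D4:**
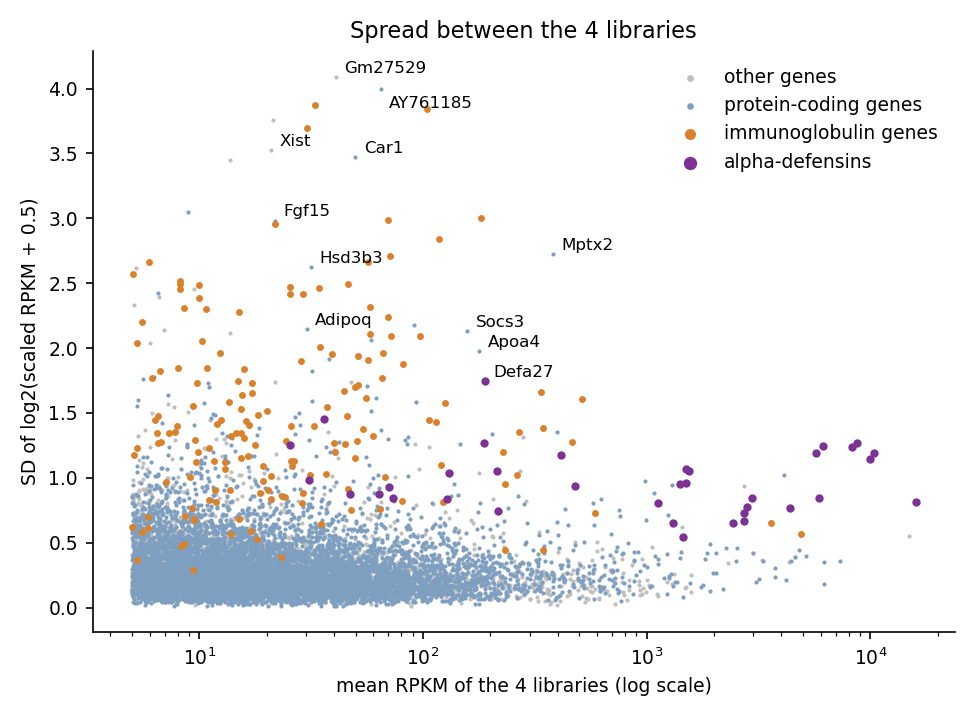
The SD of log2(scaled RPKM + 0.5) over the 4 wild-type normal-diet libraries against the mean RPKM (log axis), 1 point for each gene with a mean of at least 5. Most genes lie under 0.5, the immunoglobulin genes reach 3.87, and the alpha-defensins sit between 0.54 and 1.75.

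Male and female mice were compared because the 4 animals divide evenly by sex, but 2 against 2 is a small design in which an exact permutation test cannot give a two-sided p below 0.333. With limma over 17584 genes, 0 (0.0%) passed an adjusted p of 0.01 with a fold change of 2. At an adjusted p of 0.05, 5 genes passed (0.0284%): Xist, Eif2s3y and Gm28588 together with Ighv1-80 and Il4i1, and without adjustment 1694 (9.63%) had a p under 0.05. Without male 1 the count at the stricter threshold was 4 and without male 2 it was 3, where the remaining male is assumed to vary as the females do. Scaled values of the 2 sexes did not overlap in 7406 genes (42.1%), and these shares are the background for the counts of list members. With 2 mice of each sex, sex and any other difference between the animals cannot be told apart.

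Of these 5 genes, 2 are autosomal, and they are named here for their p. Ighv1-80, an immunoglobulin heavy chain segment, was at 133, 127, 12.4 and 7.4 (log2 difference -3.86, SE 0.25, adjusted p = 0.0232, limma). Il4i1, a secreted amino acid oxidase of immune cells, was at 0.21, 0.149, 13.3 and 12.4 (log2 difference 4.19, SE 0.31, adjusted p = 0.0273, limma). In the WD-fed libraries Il4i1 was at 3.4, 2.21, 3.1 and 3.19, with no separation of the sexes. Both differences are log2 of female over male.

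Paneth cell products were higher in the males of this group. All 36 alpha-defensins tested had a negative log2 difference of female over male, with a median of -1.38 against -0.01 over all genes tested. In 32 of them the sexes did not overlap after scaling, against 42.1% of all genes tested. Many of the 36 are near copies of one another, so they are not separate observations. None of the 36 passed the threshold, the lowest adjusted p being 0.0596. For Lyz1 the log2 difference was -1.76 (SE 0.27, adjusted p = 0.193, limma) and for Ang4 it was -2.28 (SE 0.28, adjusted p = 0.12, limma). In the WD-fed libraries the median log2 difference of female over male was -0.288 over 36 alpha-defensins and -0.87 over 8 Paneth cell genes, so males were higher by this measure there too. The order of the sums was another one. Their scaled alpha-defensin sums were 49247, 45606, 44328 and 64203, highest in female 2, and their Paneth cell sums were 4394, 4577, 3056 and 5749.

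MHC class II genes had the opposite order. H2-Aa, a class II alpha chain, was at 191, 299, 529 and 702, and H2-Eb1, a beta chain, at 197, 249, 472 and 515. The transactivator Ciita was at 4.27, 5.38, 11.2 and 9.78. All 6 genes were higher in both females, with a median log2 difference of 1.07, and the scaled sum of the females was 2.23 times that of the males. None passed the threshold, the lowest adjusted p being 0.305. Interferon-stimulated genes had the same order in the 6 tested, Isg15 standing at 7.88, 12.4, 39.6 and 23.5 and Oasl2 at 16.2, 26.7, 62.1 and 43.8. For both lists the background is that 42.1% of all genes tested did not overlap between the sexes. In WD-fed mice the scaled MHC class II sums were 1849.6, 1421, 2252 and 2895, also higher in both females.

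Among single genes named for their p, some had wider gaps. Socs3, a feedback inhibitor of cytokine signaling, was at 33.7, 13.3, 315 and 269.8 (log2 difference 3.58, SE 0.41, adjusted p = 0.0903, limma), and Tifa, an adaptor of bacterial sugar sensing, at 27.8, 17.5, 124 and 111. Ces2a, a carboxylesterase of lipid metabolism, was higher in the females at 26.4, 24, 100.2 and 89.9, and the lipase-related Pnliprp2 was higher in the males at 25.3, 29, 7.14 and 7.11. In WD-fed mice Ces2a was at 11.6, 24.5, 36.7 and 66.4 and Pnliprp2 at 19.8, 29.7, 8.99 and 6.34, with the females again all above or all below the males. Socs3, at 5.48, 6.44, 6.73 and 33.5, had there 1 high library, female 2.

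In 11 of the 12 clock genes the sexes did not overlap after scaling, against 42.1% of all genes tested. Clock genes regulate each other, so they are not separate observations. Their list was chosen with earlier results of these data known, so the count is a description only. The directions were opposite for the 2 arms of the clock. Arntl, which pairs with Clock or Npas2 in the activating arm, was at 9.52, 11.7, 4.82 and 5.21 and Npas2 at 12.3, 8.95, 5.55 and 6.12, higher in the males. Genes that this arm activates were higher in the females. The output factor Dbp was at 8.56, 5.91, 55.1 and 58.1 (log2 difference 2.74, SE 0.24, adjusted p = 0.0596, limma) and its relative Tef was at 12.2, 14.4, 35.6 and 41.8. The repressor Ciart was at 0.631, 0.496, 3.27 and 4.58 and Per1 at 6.95, 7.23, 23.7 and 14.4. Nr1d1, which represses Arntl, was at 53.8, 46.1, 79.9 and 101. The gap thus ran from 0.67 on the log2 scale for Nr1d1 to 2.74 for Dbp among these 5 genes. Cry1 overlapped, at 6.14, 7.14, 7.59 and 7.54. None of the 12 passed the threshold, the lowest adjusted p being 0.0596, and the hour of dissection is not given in the sources used here, so sex and hour cannot be told apart. In the WD-fed libraries Dbp was at 41.1, 22, 80.5 and 7.55, with a female both highest and lowest.

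The activating arm binds the E-box CACGTG, which reads the same on both strands. Among RefSeq promoter windows of 300 bases (250 before and 50 after a gene's start, GRCm38.p6), 7.15% of 32851 held it. Of the 16 windows of the 11 clock genes that had any, 5 held it, and they belong to 4 genes (Ciart, Cry1, Per1 and Tef). The 250 bases before the start are shown for 3 genes that were higher in the females, with the E-box in capitals. The windows lie at chr3:95882229-95882478, minus strand (Ciart), chr11:69098699-69098948, plus strand (Per1) and chr15:81802423-81802672, plus strand (Tef).
Ciart: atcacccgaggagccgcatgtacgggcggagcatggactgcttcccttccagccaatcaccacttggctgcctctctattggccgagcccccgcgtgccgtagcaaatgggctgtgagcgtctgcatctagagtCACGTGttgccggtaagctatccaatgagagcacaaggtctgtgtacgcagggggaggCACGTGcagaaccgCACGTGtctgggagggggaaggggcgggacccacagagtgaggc
Per1: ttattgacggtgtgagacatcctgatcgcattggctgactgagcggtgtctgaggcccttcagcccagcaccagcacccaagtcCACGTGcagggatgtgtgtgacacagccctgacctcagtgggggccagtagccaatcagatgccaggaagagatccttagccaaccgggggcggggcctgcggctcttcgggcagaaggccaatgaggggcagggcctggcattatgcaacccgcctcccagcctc
Tef: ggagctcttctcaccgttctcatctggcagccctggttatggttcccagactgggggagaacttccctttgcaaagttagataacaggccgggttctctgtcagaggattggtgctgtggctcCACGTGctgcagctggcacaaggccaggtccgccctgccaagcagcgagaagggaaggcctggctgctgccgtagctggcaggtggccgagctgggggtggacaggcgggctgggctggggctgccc

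Ciart held 3 E-boxes, the nearest starting 44 bases before the gene, and Per1 and Tef held 1 each, at 166 and 127 bases. A match is a run of letters and says nothing of binding here. Dbp and Nr1d1 had none in their windows, which says only that these letters are not there.

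**Figure D5:**
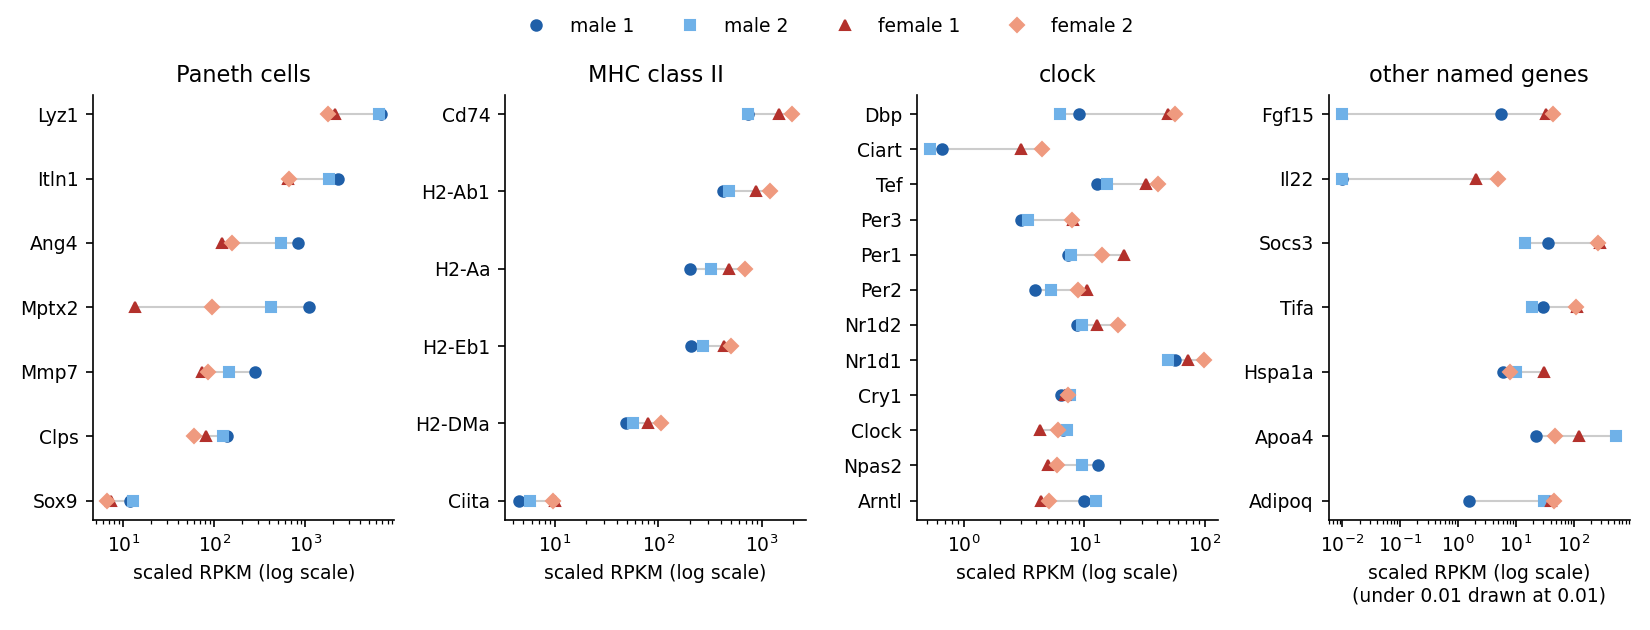
Scaled RPKM (log axes) of Paneth cell, MHC class II, clock and other named genes, 1 point per wild-type normal-diet library and a gray line over the range, with values under 0.01 drawn at 0.01. Males lie right of females for Paneth cell genes, Arntl and Npas2 and left of them for MHC class II genes, Dbp, Tef and Socs3, whereas Hspa1a is high in female 1 alone and Adipoq is low in male 1 alone.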

How the data were processed

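RNA of whole terminal ileum was sequenced on the Ion Proton after depletion of ribosomal RNA, 1 library per mouse. Per the study's methods and the submitters' processing notes, the authors aligned reads with STAR 2.5.3a to the mouse genome (GRCm38), quantified Ensembl 91 transcripts in Partek and deposited RPKM per transcript. Depth was not given and was estimated from the step that 1 read makes (7038405 to 12384102 read equivalents), with 86.7 to 87.3% of the low values tested within 0.02 of a whole read.

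Of 59258 transcripts, 98.2% matched GENCODE M21 by name, and values were summed to 23299 genes, 571 of them without a match. Spread and sex were computed on log2(scaled RPKM + 0.5), with factors from ratios trimmed by 30% and levels trimmed by 5% at each end. Folds on that scale understate the change of low genes. Sexes were compared with limma 3.58.1 (R 4.3.3, mean-variance trend, Benjamini-Hochberg) over the 17584 genes that reached 1 RPKM in 2 or more libraries, called at an adjusted p under 0.01 and at least 2-fold. The fit was also run on simulated data with independent noise in each gene. That run cannot show how the fit behaves where mice differ in many genes together. Other steps used Python 3.11.15, numpy 2.4.6, pandas 2.3.3 and matplotlib 3.10.9. Whether deposited values of 9 transcripts with more than 6 digits come from the same step is not given in the sources used here.

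The members and marker lists were chosen with earlier results of these data known. Genes were named as the 20 highest nuclear protein-coding genes, list members, the 25 with the largest and the 10 with the smallest SD at a mean RPKM of at least 5. CT010467.1, Gm28661, Gm10925, Gm28437, Cpt1a, Mtor, Ppara, Pparg, Muc3, Hif1a and Hsd3b2 and, for their p between the sexes, Ighv1-80, Il4i1, Socs3, Tifa, Ces2a and Pnliprp2 were named after their values were seen. Some members of the lists are not reported here by name. Other scalings, pseudocounts, filters, diets and left-out libraries were tried.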

Additional observations from a re-analysis of the deposited data

Results flagged for a closer look

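Single libraries that stood far from the other 3 were sought in 102 quantities, the scaled sums of 47 marker lists and the scaled RPKM of 55 named genes, with Dixon's test at the 95% level. It marked 11 of them, 4 lists and 7 genes. Chance marks about 1 in 20 groups, but the named genes include those chosen for the largest spread between these same libraries, 6 of the 7 marked genes (all but Defa30) among them, and 3 of those share 1 sequence, so the number of marked genes cannot be read against that rate.

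Among the lists, female 2 was high in the ileal bile acid and vitamin B12 genes at 7994 (the others from 4700 to 5101). Female 1 was high in the enteric neuron genes at 90.75 (41.85 to 45.11). Male 1 was low in the adipocyte genes at 38.1 (248.4 to 314.7) and in the dendritic cell genes at 4.053 (7.351 to 8.055).

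Among the genes, Defa30 was low in female 1 at 2265 (7120 to 7395), a value that depends on how reads were divided between it and Defa24. Hsd3b3 was low in female 2 at 0.6498 (30.69 to 55.71), and the immunoglobulin segment Ighv5-6 was listed at 0 there (20.3 to 41.84). Male 2 was high in Ighv2-9 at 128.6 (0.234 to 0.316). It was also high in the 3 entries that share 80 bases with Rpl19, Gm27529 at 174.6, Gm27597 at 91.22 and Gm27907 at 59.03, against at most 0.496 for each in the other libraries.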

How the results depend on the processing

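The shares of the alpha-defensins and of the 20 highest genes moved by less than 1 SD under all 8 alternatives tried for each. The number of genes with an SD of at least 1 (303) became 594 with a mean RPKM of at least 1 and 139 with at least 20. It was 183 without immunoglobulin genes and 121 for protein-coding genes only, 2 alternatives chosen after the data were seen. Leaving out 1 library gave 245 to 394, other scalings and pseudocounts 263 to 337. The 0 genes called between the sexes became 5 at an adjusted p of 0.05, 5 in the 8 wild-type libraries with diet as a covariate and 0 to 4 when a library was left out (4 without male 1, 3 without male 2). With the replicate number as a block there were 14. Deviations of same-numbered mice did not go together (r = -0.01), but 2 mice of each sex cannot show whether the numbers link animals. What the numbers stand for is not given in the sources used here. The causes were not tested. Of 148 alternative values for single genes named in the sex comparison, 131 kept their side of an adjusted p of 0.05, 8 lost it, 9 gained it and 0 turned direction. Il4i1 lost it without a filter (adjusted p = 0.0801), with a mean of at least 5 (0.0882) and over 8 libraries (0.268). Depth limits single-gene levels under about 0.1 RPKM.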

Other observations

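Genes of the ribosome and of protein folding were also compared between the sexes. The 81 ribosomal protein genes summed to 17559.6, 19099.9, 17582 and 17702 RPKM, with male 1 lowest and no order between the sexes. After the libraries were scaled to each other the sums were 18506, 20459, 15942 and 17295, with both males above both females, and 74 of the genes were higher in the males on average, so the order of the sums rests on the scaling. In 59 the sexes did not overlap after scaling, against 42.1% of all genes tested. Their median log2 difference of female over male was -0.38, and the lowest adjusted p was 0.274 (limma). In the WD-fed libraries the scaled sums were 12786, 12603, 12876 and 20671, with both females above both males. All 6 unfolded protein response genes were higher in the females on average, with Hspa5, the main chaperone of the endoplasmic reticulum, at 236, 184, 385 and 308 and the lowest adjusted p at 0.51.

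Heat-shock and immediate-early genes, which respond quickly to stress, ranged 1.7-fold as a scaled sum, at 145, 233, 246 and 219.7. Hspa1a, an inducible chaperone, was at 5.75, 9.36, 33.4 and 8.09 RPKM, highest in female 1, and Fos, an immediate-early transcription factor, at 61, 90.5, 98.6 and 119. Genes of intraepithelial lymphocytes summed to 10.6, 17.1, 32.2 and 32.4, and this sum was higher in both females. In 4 of the 6 tested the sexes did not overlap after scaling, against 42.1% of all genes tested. The cytotoxic protease Gzma among them was at 2.47, 7.62, 9.83 and 3.95, higher in male 2 than in female 2. Liver genes in the table (5 of 7) summed to 7.41, 22.9, 14.9 and 7.28.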
